A study of Mus musculus with 16 samples.

Results

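The 7 genes Ly6d, Slpi, Osbpl3, Gipc2, Calml4, Lysmd2 and Fndc10, whose roles in the liver are little described, were followed across livers of mice that differ at the ceramide synthase 2 gene (CerS2). They were chosen by their log2 signal, which was much higher in livers of the H/A or the Del line, and every array probe annotated to them was then taken, which gave 11 of 60037 probes and 7 of 31484 genes tested. Signal in H/A and Del against WT and Flox is therefore described below without a test. The comparisons of H/A with Del and of Flox with WT, and those of each gene's family relatives, were not the ones used for the choice and were tested. They use the same arrays as the choice, and the family lists were chosen with earlier results of these data known. These tests are therefore not independent of the choice.

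The study measured total liver RNA of 16 male mice aged 6 weeks, 4 of each genotype, on single-colour Agilent arrays. The 4 genotypes were CerS2 H/A, CerS2 Del (condition delHox), CerS2 Flox (condition delneo) and CerS2 WT, all on a mixed background of 75% C57BL/6 and 25% SV129. The labels do not spell out the allele behind each name, nor a Cre driver or treatment. The level of the CerS2 transcript itself was not analysed here. By RefSeq (GRCm38.p6), Ly6d lies on chromosome 15, Slpi on 2, Osbpl3 on 6, Gipc2 on 3, Fndc10 on 4 and both Calml4 and Lysmd2 on 9. Values are log2 signals that were quantile normalised over the 16 arrays, and differences are on the same log2 scale.

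Ceramide synthases join a fatty acid to a sphingoid base, and CerS2, the main ceramide synthase of liver, prefers very long acyl chains. The genes described here belong to none of the sphingolipid enzymes. Ly6d is a GPI-anchored surface protein known from lymphoid progenitors and squamous epithelium, and Slpi is a secreted inhibitor of neutrophil elastase and cathepsin G. Osbpl3 is an oxysterol-binding protein relative that moves lipids at membrane contacts, Gipc2 is a PDZ adaptor of the family that links cargo to myosin VI, and Calml4 is a calmodulin-like light chain of the intermicrovillar adhesion complex in brush borders. Lysmd2 carries a LysM domain and Fndc10 a fibronectin type III domain, and little is known of either.

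The arrays had between 51.6% and 65.2% of probes well above background by the scanner software's mark, and no probe of these genes was saturated. H/A arrays were the brightest before normalisation, with a 75th percentile signal of 109.3 to 173.1 in H/A, 91.2 to 114.8 in Del, 86.0 to 111.6 in Flox and 89.7 to 98.8 in WT. For 6 arrays (H/A 4, Del 1, Flox 1, Flox 2, Flox 4 and WT 3) the scanner file listed for the sample came from another slide than its label, while the deposited values of all 16 matched the file at the labelled position to within 0.00628 on the log2 scale. Groups follow the labels and background marks follow the matching file. Calls lost without those 6 arrays are named beside the genes.

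Probe letters are shown for the genes with more than 1 probe, since the letters show which stretch of the transcript each probe reads. The first 30 bases of the 2 Osbpl3 probes and of the 4 Calml4 probes follow, 5′ to 3′ as deposited.
Osbpl3 probe 1: acctggaactgaggaaagaccttggctttt
Osbpl3 probe 2: tcacaatgagtgacgagaagaatctcggtg
Calml4 probe 1: ttatccagaggatcaccattcctgtgcgag
Calml4 probe 2: gtctagccctatgatttgtagtcagggttg
Calml4 probe 3: aatttgactctcatggcatagagcccggtc
Calml4 probe 4: accatcatgcatatgcaaatcaagcaagag

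All 7 genes had higher signal on every H/A and every Del array than on any Flox or WT array. Without overlap in this direction were 9.02% of all genes tested for H/A against WT, 10.6% for Del against WT, 16.1% for H/A against Flox and 15.9% for Del against Flox. These shares are the background of the way the genes were chosen, and nothing is read from the 7 of 7. The median difference over the 7 genes was 3.93 for H/A minus WT, 4.34 for Del minus WT, 4.37 for H/A minus Flox and 4.30 for Del minus Flox, where the medians of all genes were -0.09, -0.11, -0.14 and -0.14. With the genes that were not well above background on any WT or Flox array set at their lower bounds, given below, the 4 medians were 3.67, 3.11, 3.77 and 4.30. Both mutant lines are compared with the same WT and Flox arrays, so these 4 sets of differences share samples. The plot of signal by genotype shows the 16 arrays for each gene.

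**Figure D1:**
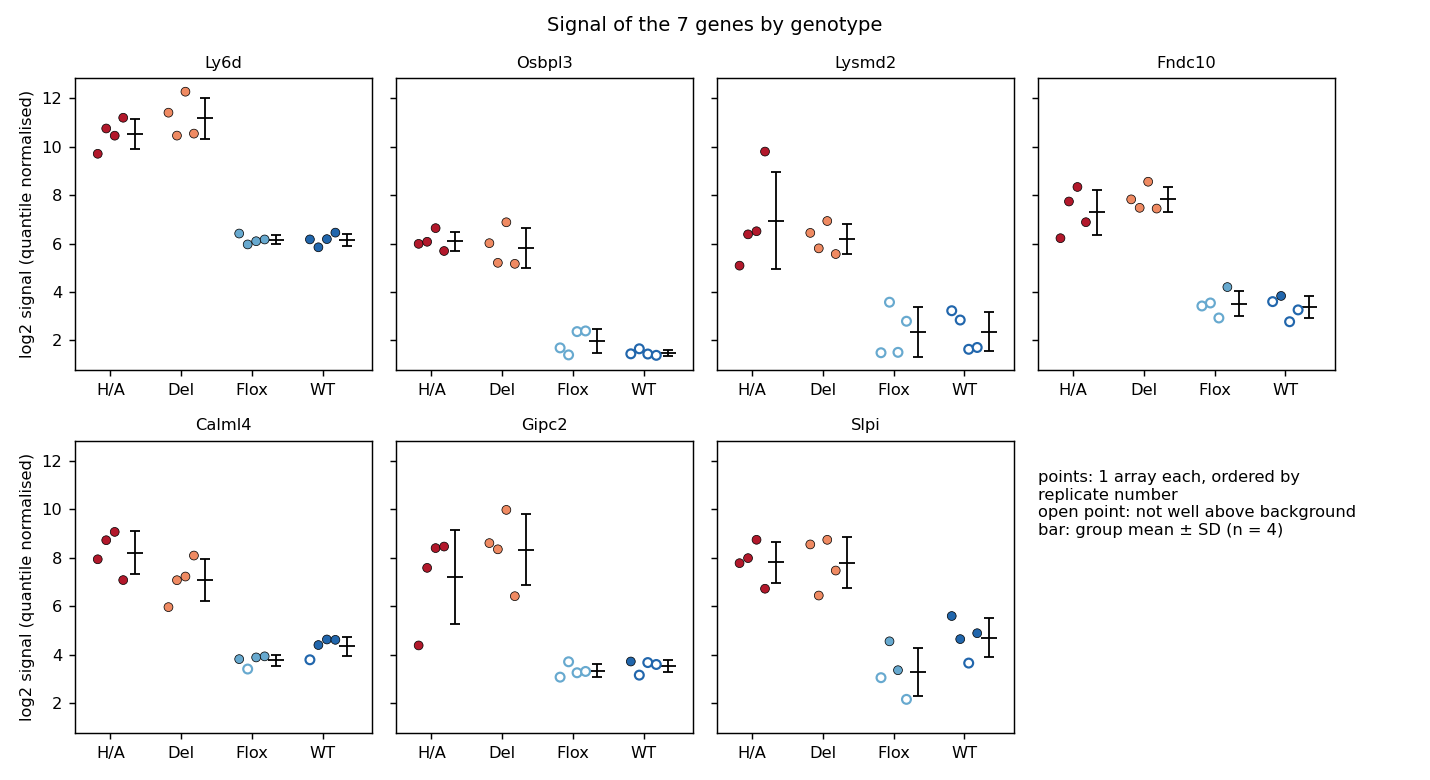
Log2 signal (quantile normalised, y axis) of the 7 genes by genotype (x axis), with 1 point per array ordered by replicate number, open where the spot was not well above background, and the mean ± SD of 4 arrays beside each group. Every H/A and Del point lies above every Flox and WT point, and the Flox and WT points of Osbpl3 and Lysmd2 are all open.

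Among the surface and secreted proteins, Ly6d was well above background on all 16 arrays. Its log2 signal was 9.71, 10.75, 10.46 and 11.20 on the H/A arrays and 11.41, 10.46, 12.27 and 10.54 on the Del arrays, against 6.41, 5.96, 6.10 and 6.17 on the Flox arrays and 6.17, 5.85, 6.18 and 6.45 on the WT arrays. The Flox and WT arrays lay within a narrow band, and the lowest mutant array, H/A 1, stood 3.26 above the highest WT array. Mean signal was 10.53 ± 0.63 in H/A and 11.17 ± 0.85 in Del, against 6.16 ± 0.19 in Flox and 6.16 ± 0.25 in WT (SD, n = 4 each). That put Ly6d 20.6-fold higher in H/A and 32.2-fold higher in Del than in WT.

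Slpi, the secreted protease inhibitor, had log2 signals of 7.78, 7.99, 8.75 and 6.72 on the H/A arrays and 8.55, 6.44, 8.74 and 7.48 on the Del arrays. On Flox arrays the signals were 3.05, 4.55, 3.36 and 2.15, of which 2 were well above background, and on WT arrays they were 5.60, 4.64, 3.65 and 4.89, of which 3 were. The groups came close without overlapping, with WT 1 at 5.60 and Del 2 at 6.44, a gap of 0.85. The mean was 7.81 ± 0.83 in H/A and 7.80 ± 1.07 in Del, against 3.28 ± 0.99 in Flox and 4.69 ± 0.80 in WT. The difference was 3.12 for H/A minus WT and 3.11 for Del minus WT, but 4.53 against Flox in both lines.

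For the lipid-transfer protein Osbpl3, neither probe was well above background on any Flox or WT array, so that its folds are lower bounds. Each bound divides the mutant mean by the signal of the dimmest probe marked well above background on each array, or by the probe's own signal where that was higher. Probe 1 gave 5.99, 6.07, 6.64 and 5.69 on the H/A arrays and 6.02, 5.20, 6.88 and 5.16 on the Del arrays, against 1.69, 1.40, 2.36 and 2.39 on the Flox arrays and 1.44, 1.65, 1.44 and 1.38 on the WT arrays. By this probe the signal exceeded WT at least 6.18-fold in H/A and at least 5.08-fold in Del, with measured means of 6.10 ± 0.39, 5.82 ± 0.81 and 1.48 ± 0.12 in the 3 groups. Against Flox, whose measured mean was 1.96 ± 0.49, the bounds were 6.67-fold in H/A and 5.48-fold in Del.

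Probe 2 of Osbpl3 was dimmer. With both probes H/A and Del overlapped each other, and every array of these lines read above every Flox and WT array. Its signal was 4.25, 4.06, 4.49 and 3.34 on the H/A arrays, all well above background, and 3.88, 2.48, 4.40 and 2.35 on the Del arrays, where only Del 3 was. The Flox arrays read 1.22 to 1.29 and the WT arrays 1.23 to 1.26. The bound for H/A was at least 1.48-fold over WT and at least 1.60-fold over Flox, and none could be given for Del, whose mean lay under that of the dimmest marked signals. The same ranking of the Del arrays was seen with both probes, with Del 3 highest and Del 4 lowest.

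Gipc2, the PDZ adaptor, varied widely among the mutant livers. Its log2 signal was 4.38, 7.59, 8.40 and 8.47 on the H/A arrays and 8.61, 8.35, 9.98 and 6.42 on the Del arrays, against 3.07, 3.71, 3.25 and 3.31 on the Flox arrays and 3.72, 3.15, 3.67 and 3.59 on the WT arrays. H/A 1 stood only 0.66 above the highest WT array, while the other H/A arrays exceeded it by over 3 log2 units. No Flox array and 1 WT array, WT 1, was well above background. Mean signal was 7.21 ± 1.93 in H/A and 8.34 ± 1.47 in Del, against 3.33 ± 0.27 in Flox and 3.54 ± 0.26 in WT. Against Flox, Gipc2 reached at least 13.5-fold in H/A and at least 29.6-fold in Del. Against WT, with 1 of 4 arrays marked, the measured difference was 3.67 in H/A, or 4.62 without H/A 1, and 4.80 in Del, or 5.45 without Del 4.

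Calml4, the brush-border light chain, had 4 probes, of which 3 were higher in the mutant lines and 1 was not. Probe 1, which had the highest mean signal of its probes and stands for the gene, gave 7.94, 8.73, 9.07 and 7.08 on the H/A arrays and 5.96, 7.08, 7.23 and 8.09 on the Del arrays, against 3.82, 3.41, 3.89 and 3.93 on the Flox arrays and 3.79, 4.40, 4.63 and 4.61 on the WT arrays. The groups did not overlap, and 3 Flox and 3 WT arrays were well above background. Its mean was 8.21 ± 0.89 in H/A and 7.09 ± 0.87 in Del, against 3.76 ± 0.24 in Flox and 4.36 ± 0.39 in WT, a difference of 3.85 for H/A minus WT and 2.73 for Del minus WT.

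Probe 2 of Calml4 gave 7.27, 8.35, 8.87 and 6.89 on the H/A arrays and 6.16, 6.40, 6.74 and 7.68 on the Del arrays. Its signal was 2.25, 3.04, 3.55 and 3.27 on the Flox arrays and 2.60, 3.45, 3.48 and 3.73 on the WT arrays, with 1 array of each of these groups well above background. These values kept the order of probe 1 in H/A and Del, highest in H/A 3 and Del 4, and differed by 4.53 for H/A minus WT and 3.43 for Del minus WT. Probe 4 read 5.94, 6.61, 7.08 and 5.23 on the H/A arrays and 4.33, 5.18, 5.13 and 5.91 on the Del arrays, against 1.93, 2.67, 2.79 and 3.49 on the Flox arrays and 3.16, 3.34, 3.14 and 3.34 on the WT arrays. As no Flox or WT array was well above background with probe 4, its folds over WT are bounds of at least 6.70 in H/A and at least 3.18 in Del.

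Probe 3 of Calml4 stood apart from the other 3. It was well above background on all 16 arrays, at 4.96, 4.99, 4.86 and 4.51 in H/A and 4.95, 5.0, 4.38 and 4.57 in Del, against 5.20, 5.05, 4.78 and 5.08 in Flox and 4.97, 4.78, 5.46 and 4.51 in WT. All 4 groups overlapped, with a difference of -0.10 for H/A minus WT and -0.20 for Del minus WT. The 49 bases of this probe occur in full, on the strand of the gene, in the RefSeq promoter window of Calml4, from base 88 to base 40 before the tabulated start site, at chr9:62858016-62858064 of GRCm38.p6. RefSeq gives the gene itself as chr9:62857472-62875921, so the match lies inside the annotated gene span though upstream of that start site. No other probe of the 7 genes matched a promoter window given for them. The 250 bases before the start site, chr9:62857854-62858103 on the plus strand, are shown with the probe in capitals.
Calml4 promoter: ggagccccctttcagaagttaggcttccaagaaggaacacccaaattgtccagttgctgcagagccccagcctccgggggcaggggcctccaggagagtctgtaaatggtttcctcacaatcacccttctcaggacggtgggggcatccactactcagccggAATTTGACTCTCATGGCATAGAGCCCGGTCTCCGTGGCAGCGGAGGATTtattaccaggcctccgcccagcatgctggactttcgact
The plot of the Calml4 probes sets the 4 side by side.

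**Figure D2:**
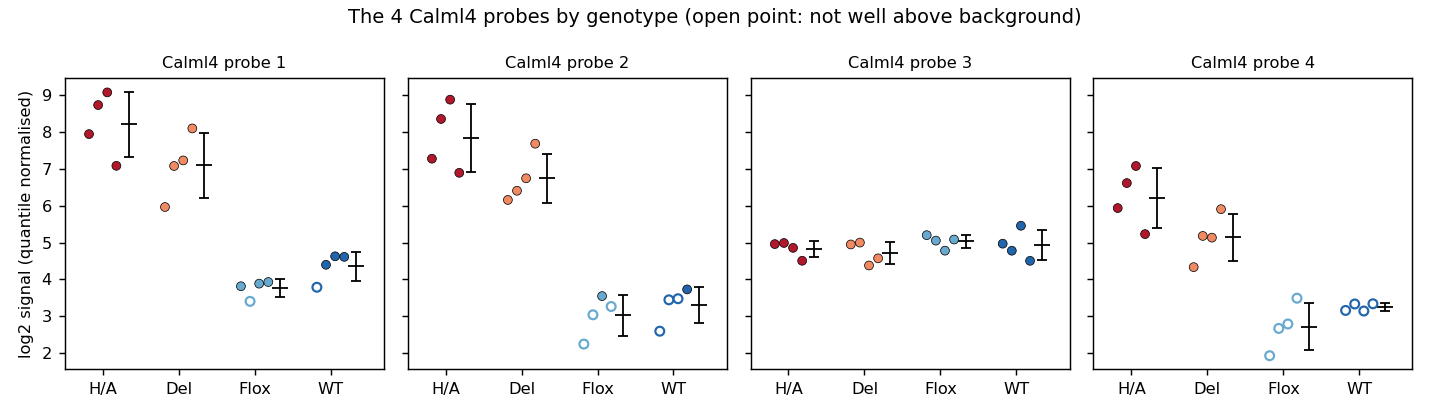
Log2 signal (quantile normalised, y axis) of the 4 Calml4 probes by genotype (x axis), 1 point per array, open where not well above background, with mean ± SD of 4 arrays. Probes 1, 2 and 4 are higher in every H/A and Del array than in any Flox or WT array, whereas the groups of probe 3 overlap between 4.38 and 5.46.

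RefSeq promoter windows of 300 bases, 250 before the start site and 50 after it, were given for 3 of the 7 genes, Osbpl3, Calml4 and Slpi. Searched on both strands, none of the 3 held the AP-1 letters TGANTCA, the antioxidant response element letters TGACNNNGC, the ATF/CRE letters TGACGTCA or the TATA box letters TATAAA. Of all 32851 windows in the table, 7.81%, 12.4%, 1.79% and 13.6% held these motifs in that order. The search says only that these letters were not in those windows.

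Of the genes with the least described function, Lysmd2 had 1 spot that the scanner software marked as an outlier. Lysmd2 signal was 5.09, 6.38, 6.51 and 9.80 on the H/A arrays, where the 9.80 of H/A 4 is the marked spot, and 6.44, 5.80, 6.93 and 5.57 on the Del arrays. It was 1.49, 3.58, 1.51 and 2.79 on the Flox arrays and 3.22, 2.84, 1.63 and 1.71 on the WT arrays, none of them well above background. The H/A mean was 6.94 ± 2.01 with the marked spot and 5.99 ± 0.79 (n = 3) without it, beside 6.19 ± 0.62 in Del, 2.34 ± 1.03 in Flox and 2.35 ± 0.80 in WT. Against WT, Lysmd2 in H/A stood at least 11.1-fold higher with that spot and at least 5.74-fold higher without it, and in Del at least 6.57-fold higher. The computed H/A minus WT difference of Lysmd2 was 4.59 with the marked spot, 3.64 without it and 5.21 without H/A 1. These values rest on WT signals that were not well above background.

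Fndc10 was high in all 8 mutant livers. Its log2 signal was 6.22, 7.74, 8.34 and 6.88 on the H/A arrays and 7.83, 7.48, 8.55 and 7.45 on the Del arrays, against 3.42, 3.55, 2.92 and 4.20 on the Flox arrays and 3.60, 3.84, 2.77 and 3.26 on the WT arrays. The lowest mutant array, H/A 1, stood 2.02 above the highest Flox array, Flox 4. Flox 4 and WT 2 were the only arrays of their groups well above background. Mean signal was 7.30 ± 0.93 in H/A and 7.83 ± 0.52 in Del, against 3.52 ± 0.53 in Flox and 3.37 ± 0.46 in WT. With 1 of 4 WT arrays marked, the measured difference was 3.93 for H/A minus WT and 4.46 for Del minus WT.

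How large these differences came out depended on the background correction. Over the 5 genes other than Osbpl3 and Lysmd2, whose WT signals were not well above background, H/A minus WT ran from 3.12 for Slpi to 4.37 for Ly6d and Del minus WT from 2.73 for Calml4 to 5.01 for Ly6d in the deposited values. With the normal-exponential correction and an offset of 50 before quantile normalisation, they ran from 1.66 for Slpi to 3.47 for Ly6d and from 1.29 for Calml4 to 4.13 for Ly6d. Taking each sample's listed file, which puts another mouse's array into 6 samples, gave 1.06 for Slpi to 2.76 for Calml4 in H/A minus WT and 0.69 for Slpi to 2.48 for Ly6d in Del minus WT. Without those 6 arrays, H/A minus WT ran from 3.13 for Slpi to 4.31 for Calml4 and Del minus WT from 2.51 for Slpi to 4.94 for Ly6d. No difference of the 7 genes in H/A or Del against WT or Flox changed sign under any alternative or with any array left out. As the genes were chosen by these differences, nothing is read from that. In bulk liver RNA, a change in the number of cells of a type and a change in RNA per cell cannot be told apart.

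Whether the H/A and Del lines differed from each other was tested in a linear model of all genes over the 16 arrays (limma, Benjamini-Hochberg adjusted p under 0.05). Of the 7 genes 0 were called, as were 0.0127% of all genes (4 of 31484), and 0 of the 7 separated the 2 lines without overlap, where 1.55% of all genes lay wholly higher and 2.12% wholly lower in H/A. At an unadjusted p under 0.05 there was 1, Calml4, at 8.21 ± 0.89 in H/A and 7.09 ± 0.87 in Del. Its difference was 1.12 with a 95% interval of 0.21 to 2.02 (limma adjusted p = 0.564). Calml4 probes 2 and 4 differed by 1.10 and 1.08 and probe 3 by 0.10.

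For the other 6 genes the intervals of H/A minus Del included 0. Ly6d differed by -0.64 (95% interval -1.40 to 0.11), Fndc10 by -0.53 (-1.40 to 0.34) and Osbpl3 by 0.28 (-0.43 to 0.99). The interval of Slpi ran from -1.25 to 1.26 around 0.01, and that of Gipc2 from -2.77 to 0.51 around -1.13. Intervals of this width leave room for differences of over 1 log2 unit in either direction for Slpi, so they do not show that both lines carry the same level. Lysmd2 differed by 0.76 (-0.90 to 2.41), which became -0.19 once the marked spot of H/A 4 was left out.

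Flox livers were tested against WT livers in the same model. None of the 7 genes was called, with 0.0222% of all genes called (7 of 31484), and 0 of the 7 separated Flox from WT without overlap, where 2.08% of all genes lay wholly higher and 2.3% wholly lower in Flox. Slpi alone had an unadjusted p under 0.05, at 3.28 ± 0.99 in Flox and 4.69 ± 0.80 in WT, a difference of -1.42 with a 95% interval of -2.67 to -0.17 (limma adjusted p = 0.802). The difference was -0.00 for Ly6d (-0.76 to 0.75), -0.60 for Calml4 (-1.50 to 0.30) and 0.16 for Fndc10 (-0.71 to 1.02). Osbpl3 and Lysmd2 were not well above background on any Flox or WT array, so a difference between these groups was not measured for them. Gipc2 was marked on WT 1 alone of the 8 arrays, and Fndc10 on 1 array of each group. The interval plot shows both comparisons.

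**Figure D3:**
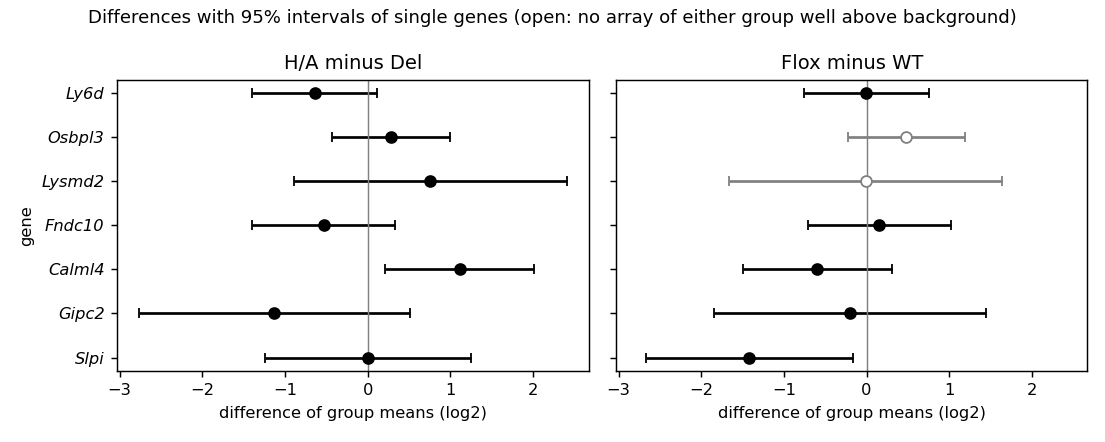
Difference of group means (log2, x axis) with 95% intervals of single genes for each of the 7 genes (y axis), H/A minus Del in the left panel and Flox minus WT in the right. The interval lies wholly above 0 for Calml4 in H/A minus Del and wholly below 0 for Slpi in Flox minus WT, and includes 0 elsewhere. Open grey points, Osbpl3 and Lysmd2 in the right panel, were not well above background on any array of either group.

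The 7 genes did not rank the mutant livers alike. Within Del, array Del 3 was the highest for 6 of 7 genes, by up to 1.64 log2 units over the group mean for Gipc2, and Calml4 was the exception with its highest value in Del 4. Del 4 was the lowest for 4 genes. Within H/A, H/A 1 was the lowest for Ly6d, Lysmd2, Fndc10 and Gipc2, where Gipc2 was at -2.83 against its group mean. H/A 4 was the highest for Ly6d, Lysmd2 and Gipc2 and the lowest for Osbpl3, Calml4 and Slpi. These are ranks of 4 arrays in each group and were not tested, and the map of deviations shows them array by array.

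**Figure D4:**
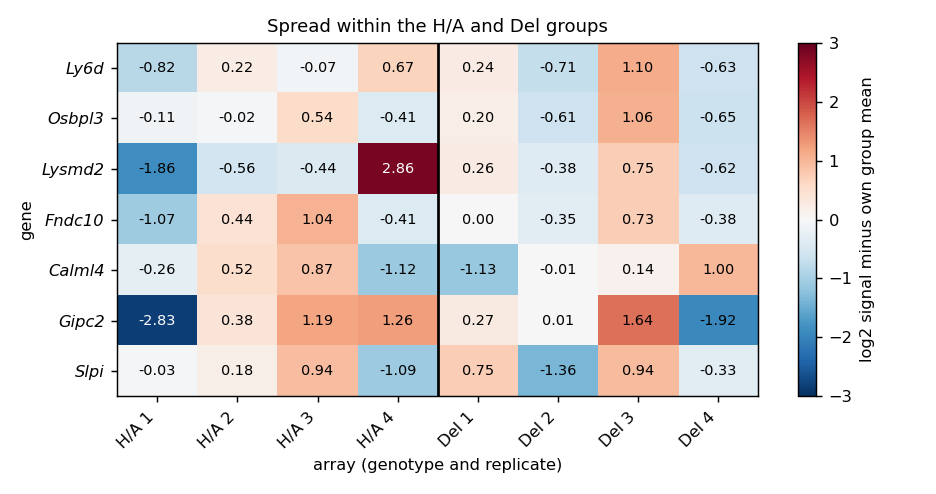
Log2 signal minus the mean of the array's own group for the 7 genes (y axis) on the 4 H/A and 4 Del arrays (x axis), red above and blue below the group mean. The column Del 3 is above 0 for all 7 genes, and H/A 1 is furthest below 0 for Gipc2 at -2.83.

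The arrays lay on 2 slides, the first with 3 H/A, 1 Del, 2 Flox and 2 WT arrays by the labels and the second with 1, 3, 2 and 2. With the slide as a block, H/A minus WT was 4.42 for Ly6d and 2.85 for Slpi, and Del minus WT was 4.96 for Ly6d and 3.38 for Slpi. Within the first slide H/A minus Del of Calml4 was 2.62 (3 arrays against 1) and within the second it was -0.38 (1 array against 3). The lone arrays, Del 1 on the first slide and H/A 4 on the second, were each the lowest of their group for Calml4. Lysmd2 in H/A minus Del was -0.45 within the first slide and 3.70 within the second, where the only H/A array was H/A 4 with its marked spot. With the slide as a block the H/A minus Del difference was 1.23 for Calml4 (adjusted p = 0.517) and 0.88 for Lysmd2 (adjusted p = 0.833).

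Outside the 7 genes, the named genes with the most similar profile were found by the root mean square difference of log2 signal over the 16 arrays after removing each gene's mean, a description of likeness with no test, since all genes that differ strongly between the genotypes score well on it. For Fndc10 they were 2010003K11Rik at 0.51, Smoc2 at 0.53 and H2-Q1 at 0.56, where the median of all named genes was 2.21. 2010003K11Rik was also the nearest of them to Ly6d at 0.63 and to Osbpl3 at 0.62. Ly6d was followed by Gm19705 at 0.67 and Anxa2 at 0.70, and Osbpl3 by Golm1 at 0.65 and Rragd at 0.68. Slpi was nearest to Rragd at 0.70, Gm19705 at 0.78 and Smoc2 at 0.84. Rragd and Gm19705 were each well above background on 8 of 16 arrays.

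Outside the 7, Gipc2 lay nearest to the glutathione transferase gene Gsta2 at 0.85, then to H2-Q1 at 0.87 and Anxa2 at 0.88. Calml4 lay nearest to 2310034O05Rik at 0.72, to Nt5e, an ectonucleotidase, at 0.84 and to Ppl, which encodes periplakin, at 0.86. For Lysmd2 the nearest lay at 1.00, that of the spindle gene Tpx2, followed by Smoc2 at 1.04 and the cell-cycle gene Cdkn3 at 1.05. Among the 7 genes the closest pair was Fndc10 with Osbpl3 at 0.57, Ly6d lay at 0.63 from Osbpl3 and at 0.80 from Gipc2, and the least alike was Calml4 with Gipc2 at 1.57.

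Relatives of the 7 genes by family or partnership were set beside them. Of 97 relatives listed, 88 had a probe and 71 passed the filter on dim probes. In H/A against WT 8 rose and 3 fell, or 15.5% where 10.1% of all genes were called (7.08% higher and 2.97% lower), and in Del against WT 8 rose and 3 fell, or 15.5% where 13.2% were called (8.85% higher and 4.38% lower). The median difference of the 71 was -0.05 in H/A and -0.08 in Del, near the -0.09 and -0.11 of all genes. Without WT 2 the calls numbered 23 in H/A and 19 in Del, without the 6 arrays of the mismatched files 3 in each, and without H/A 3 there were 6 in H/A. Without WT 1 there were 7 in H/A, and without Del 3 there were 7 in Del. In Flox against WT 0 of 71 were called by limma, with 0.0222% of all genes called.

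Of 22 Ly6 relatives tested, 5 rose in H/A and 4 in Del. Ly6e, a GPI-anchored protein induced by interferon, stood at 12.29, 13.46, 13.59 and 13.57 in H/A and 14.04, 13.48, 13.79 and 13.21 in Del, against 11.22, 11.53, 11.28 and 11.47 in Flox and 10.43, 11.36, 11.13 and 11.39 in WT. Both mutant groups lay above both others without overlap. Ly6e rose by 2.15 in H/A and 2.55 in Del (limma adjusted p = 0.000471 and 6.8e-05). Ly6a, the stem cell antigen Sca-1, rose by 2.07 in H/A and 1.80 in Del (limma adjusted p = 0.0105 and 0.0159). Its H/A and WT groups overlapped, with H/A 1 at 6.11 below WT 2 at 6.38. Ly6c2, a monocyte surface protein, rose by 1.46 in H/A and 1.31 in Del (adjusted p = 0.00657 and 0.00869).

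Ly6c1 and Ly6i are less certain, since near-identical Ly6 genes may share probe targets and their own probes disagreed. Ly6a and Ly6c2 had 1 probe each, so agreement between probes could not be looked at for them. Ly6c1 rose by 2.03 in H/A and by 1.57 in Del with its brightest probe, while the 3 of its 4 probes that passed the filter ran from -0.24 to 2.03 in H/A. That probe was well above background on 4 H/A, 4 Del, 0 Flox and 1 WT arrays. It needed the mutant arrays to pass the filter and its WT level was mostly not measured, so little is read from its calls. Ly6i rose by 0.68 in H/A, where its other probe gave -0.63. The remaining Ly6 relatives tested were not called in H/A or Del. The call of Ly6a in Del was lost without WT 1, WT 3 or Del 3, that of Ly6c1 in H/A without H/A 3, and that of Ly6c1 in Del without WT 3, WT 4 or any Del array. Ly6i lost its call in H/A without H/A 3, H/A 4, WT 1, WT 3 or WT 4. Without the 6 arrays of the mismatched files, Ly6e kept its calls at 2.05 in H/A and 2.43 in Del, while Ly6a, Ly6c1 and Ly6c2 lost theirs in both lines (limma adjusted p from 0.0723 to 0.207) and Ly6i lost its call in H/A (adjusted p = 0.297). With the slide in the listed file name as a block, Ly6a, Ly6c1 and Ly6c2 lost their calls in Del.

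In the family of Osbpl3, 0 of 9 oxysterol-binding protein genes tested were called by limma in either line. The LysM domain genes, relatives of Lysmd2, likewise had 0 of 5 called, with Lysmd1, Lysmd3 and Lysmd4 between -0.20 and 0.07. Of 7 fibronectin type III domain genes, Fndc4 fell by 0.73 in H/A and 0.57 in Del (limma adjusted p = 0.00144 and 0.00474), while Fndc10 itself was higher. Fndc8 fell by 0.58 in H/A (adjusted p = 0.0395), a call lost without H/A 2, H/A 3, H/A 4, WT 1, WT 3, WT 4 or Flox 3. Fndc4 without the 6 arrays stayed called in H/A at -0.72 and lost its call in Del at -0.56, and Fndc8 lost its call in H/A at -0.54 (adjusted p = 0.049997, 0.0759 and 0.254).

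Gipc1, the closest relative of Gipc2, rose in both lines, by 0.89 in H/A and 0.84 in Del (limma adjusted p = 0.00807 and 0.00819). Its signal was 6.60, 6.77, 7.04 and 6.96 in H/A and 6.53, 6.80, 7.02 and 6.81 in Del, against 5.51, 6.11, 5.92 and 6.10 in Flox and 6.40, 6.07, 5.70 and 5.65 in WT. The mutant arrays all lay above the others. Both Gipc1 calls were lost without the 6 arrays, at 0.76 in H/A and 0.84 in Del (adjusted p = 0.112 and 0.0634). Myo6, the myosin that GIPC proteins bind, was at -0.28 in H/A and -0.19 in Del and was not called.

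Of 9 calmodulin genes and partners of Calml4 in the intermicrovillar complex, the protocadherin Cdhr5 rose by 0.92 in H/A and 1.19 in Del (limma adjusted p = 0.0196 and 0.00306). Its call in H/A was lost without H/A 2, H/A 3 or WT 1. Calm3 rose by 0.81 in Del (adjusted p = 0.0129) and was not called in H/A at 0.51. Cdhr5 without the 6 arrays stayed called in Del at 1.24 and lost its call in H/A at 1.00, and Calm3 lost its call in Del at 0.67 (adjusted p = 0.0248, 0.0744 and 0.165). Ush1c, the scaffold of the complex, stood at 0.14 and 0.04 in H/A and Del and was not called.

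Among 14 WAP-domain relatives of Slpi, Wfdc21 fell by 2.23 in H/A and by 2.34 in Del (limma adjusted p = 0.00127 and 0.00054), opposite in direction to Slpi. Its signal was 10.69, 10.48, 10.35 and 11.73 in H/A and 11.28, 10.26, 10.71 and 10.56 in Del, against 11.53, 12.51, 12.61 and 13.01 in Flox and 13.33, 13.44, 12.88 and 12.50 in WT. Mutant and WT arrays did not overlap, while Flox 1 at 11.53 lay below H/A 4. Wfdc18 rose by 0.99 in H/A (adjusted p = 0.0443), a call that was lost without any 1 of 9 arrays, H/A 2, H/A 3, H/A 4, WT 1, WT 3, WT 4, Del 4, Flox 3 and Flox 4. Wfdc15a fell by 0.54 in Del (adjusted p = 0.0286), a call lost without WT 1, WT 4, Del 1, Del 3 or Del 4. Wfdc21 without the 6 arrays stayed called in both lines, at -2.58 in each, and the calls of Wfdc18 and Wfdc15a were lost (adjusted p = 0.245 and 0.136). Of the neutrophil serine protease genes Elane, Ctsg and Prtn3, 0 of 3 were called.

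**Figure D5:**
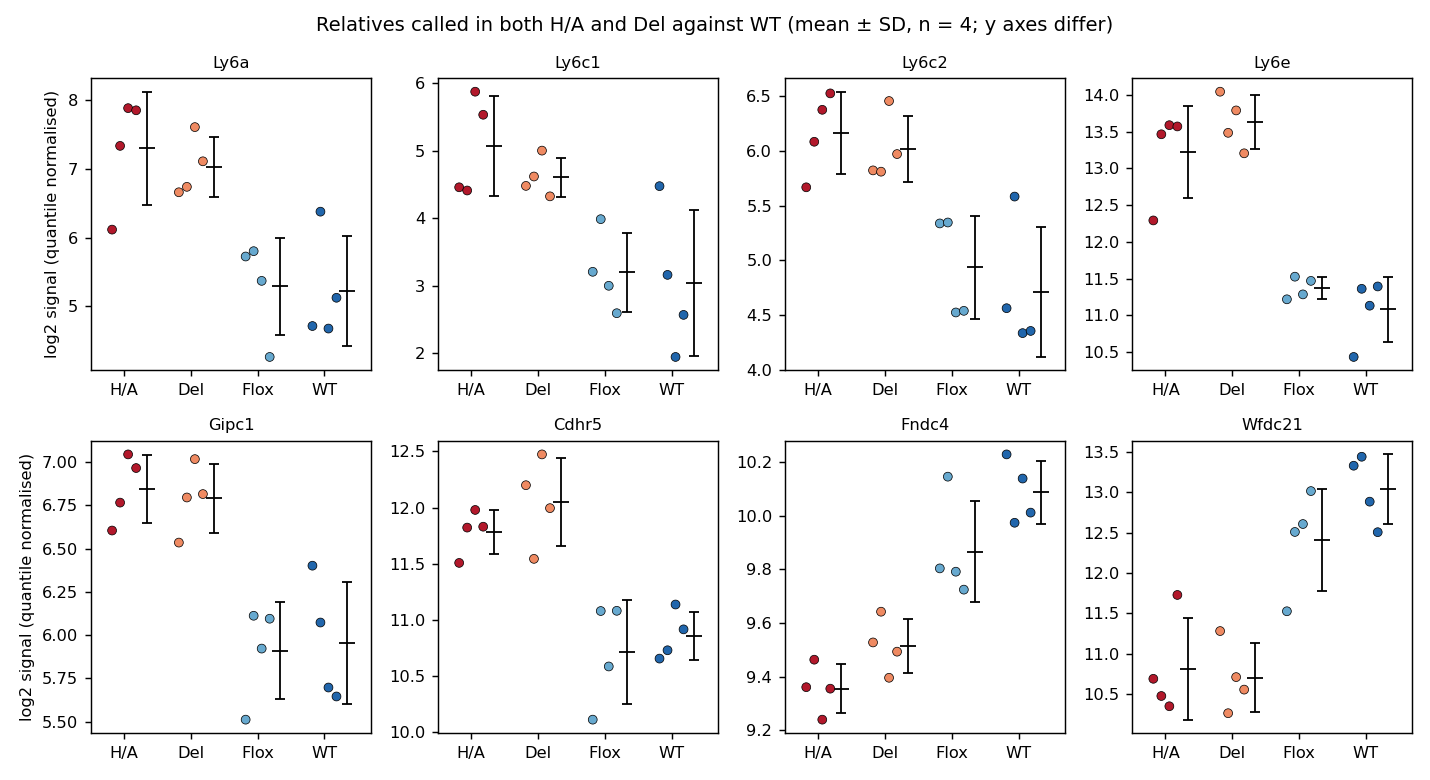
Log2 signal (quantile normalised, y axis with its own range in each panel) of the 8 family relatives called in both H/A and Del against WT, by genotype (x axis), 1 point per array with mean ± SD of 4 arrays. Ly6a, Ly6c1, Ly6c2, Ly6e, Gipc1 and Cdhr5 have higher group means in H/A and Del than in WT, and Fndc4 and Wfdc21 have lower ones. Points are filled whether or not well above background, and Ly6c1 was so marked on 0 Flox arrays and 1 WT array.

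Markers of cell types in which some of these genes are known were set beside them. Most Kupffer cell and macrophage markers rose in the mutant lines, 7 of 9 tested in H/A and 6 of 9 in Del, where 7.08% and 8.85% of all genes rose. Csf1r, at -0.46 in H/A and -0.57 in Del, and Timd4, at 0.12 in both, were not called. Clec4f was called in H/A alone. The mean log2 signal of the 9 was 8.30 to 9.31 in H/A and 8.32 to 8.59 in Del. In Flox it was 7.60 to 8.03 and in WT 7.09 to 7.99. Without the 6 arrays of the mismatched files 3 rose in H/A and 1 in Del, and with single arrays left out 6 to 7 rose in H/A and 5 to 7 in Del. Marco, a scavenger receptor, rose by 2.68 in H/A and by 2.50 in Del, and Adgre1, a Kupffer cell surface receptor, by 1.70 and 1.22 (limma adjusted p from 0.002 to 0.013). Of 8 neutrophil markers tested S100a8 rose by 2.15 in H/A and by 1.70 in Del and S100a9 by 1.58 in H/A, a call of S100a9 lost without H/A 3 or WT 3, while the granule genes Mpo, Elane, Ngp and Camp were not called. Without the 6 arrays Adgre1 stayed called in H/A at 1.66 (limma adjusted p = 0.0495), and Adgre1 in Del, S100a9 in H/A and both lines of Marco and S100a8 lost their calls (adjusted p from 0.0571 to 0.199). With the slide in the listed file name as a block, S100a8 and the macrophage markers Adgre1, Marco, Cd5l, Vsig4 and C1qa lost their calls in Del. Of the macrophage markers called in Del, only Mpeg1 kept its call there. The call of Vsig4 in Del changed in 13 of 30 settings. The part of these markers in the values of the 7 genes was not tested.

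Few markers of other cell types were called, where 10.1% of all genes were called in H/A and 13.2% in Del. Lists this short can hold 0 or 1 call at those shares, so the counts do not show that a cell type was unchanged. B lymphocyte markers, of interest beside Ly6d, had 0 of 5 called, and Pax5 did not pass the filter on dim probes. Cholangiocyte markers had 0 of 6 called. Enterocyte markers, of interest beside Calml4, had 0 of 3 called, with Vil1, Cdh17, Mep1b, Sis and Lct under the filter. Squamous epithelium markers had Krt6a, which fell in Del, as their 1 call of 4, with Ivl, Dsg3 and Krt13 under the filter, and of 5 pancreatic acinar markers Cela1 fell in both lines. Of 5 T lymphocyte and NK cell, 7 stellate cell and fibroblast and 7 sinusoidal endothelial cell markers 0 were called. Hepatocyte markers, Alb and Ttr among them, averaged 14.58 to 14.61 in H/A and 14.46 to 14.60 in Del, against 14.38 to 14.53 in Flox and 14.47 to 14.55 in WT. Of those 7 markers, Cps1 rose in H/A by 0.68.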

How the data were processed

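Cy3-labelled liver RNA of 16 mice was hybridised to 16 arrays on 2 slides. Per the file headers, the scanner files hold spot intensity values made by Agilent Feature Extraction 11.5.1.1, and the submitters' processing notes name Partek. Expression was taken from the authors' deposited log2 values, which the authors had quantile normalised, since every column had a median of 4.36 and differed by at most 0.00628 from values recomputed from the scanner file at the labelled position. For 6 samples the listed file differed from that position (correlation with the column, after removing probe means, of -0.299 to 0.159).

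Symbols came from RefSeq transcript identifiers, which named 36264 of 60037 probes. Kept were 37819 probes with a mark of well above background on 4 or more of 16 arrays, and the probe with the highest mean stood for each gene (31484). This filter let Osbpl3 and Lysmd2 pass through the mutant arrays alone. Gipc2, marked on WT 1, and Fndc10, marked on Flox 4 and WT 2, also needed the mutant arrays to pass. So did the relative Ly6c1, marked on 0 Flox arrays and 1 WT array. All genes were fitted in 1 model of 4 groups with limma 3.58.1 in R 4.3.3, tested first on simulated data. Intervals are 95%, unadjusted. The p-values set each difference against the spread between arrays within the 4 groups, each array from a different mouse. Spread between mice and between hybridisations cannot be separated in them, and the number of arrays limits the precision. Named genes are the 7 members, the 3 nearest profiles of each and every called relative, except 1 that is not reported here; some further relatives and markers were chosen after their values were seen. The members, family lists and marker lists were chosen with earlier results of these data known.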

Additional observations from a re-analysis of the deposited data

How the results depend on the processing

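Of the 7 genes, 0 were called in Flox against WT and in H/A against Del under each of 14 alternatives and with each of 16 arrays left out in turn. For Osbpl3 and Lysmd2 a difference of Flox from WT was not measured, so they could hardly have been called there. The filter of 12 of 16 arrays held only 3 of the 7 genes. Leaving out the 6 arrays of the mismatched files left Flox 3 alone in Flox, so nothing is read from Flox against WT there. In H/A and Del against WT and Flox, 0 of 824 recomputed differences changed sign and 67 moved by more than 1 SD. The genes were chosen by these differences, so nothing is read from the unchanged signs. Leaving out an array of a group outside a comparison cannot change its difference. The 824 also include Osbpl3 and Lysmd2, whose Flox and WT signals were not well above background. The count of family relatives called in H/A against WT, 11, was 0 with the listed files, 24 without scaling, 7 with only both groups fitted and 3 without the 6 arrays of the mismatched files, and 6 to 23 with 1 array left out. For family relatives called in Del against WT, also 11, it was 0, 7 without scaling, 5 with the slide in the listed file name as a block and 3, and 7 to 19 with 1 array left out. Listed files put other mice's arrays into 6 samples. Leaving arrays out left fewer samples, and the counts moved both ways, up to 23 in H/A and 19 in Del without WT 2. The cause of these shifts was not tested.

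Small uncalled differences turned sign. Ly6d Flox minus WT was 0.0025 with 75th percentile scaling and 0.0046 without scaling (-0.11 to 0.094 with 1 array left out). Osbpl3 H/A minus Del was -0.068 with the file-name slide block. Lysmd2 was not well above background on any Flox or WT array by the labels, so its Flox minus WT was not measured. The computed value was 0.77 with the listed files, 0.0012 with the normal-exponential correction and 0.35 with the file-name slide block (-0.42 to 0.28). Lysmd2 H/A minus Del was -0.091 with the listed files, -0.11 without the 6 arrays and -0.19 without the marked spot (-0.19 to 1.38). Fndc10 Flox minus WT was -0.28 with the listed files and -0.64 without the 6 arrays (-0.070 to 0.36 with 1 array left out). Without the 6 arrays the only Flox array was Flox 3, on which Fndc10 was not well above background. Slpi H/A minus Del was -0.0090 with 75th percentile scaling, -0.053 with the normal-exponential correction and -0.53 with the labelled slide as a block (-0.45 to 0.37).

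Leaving out the 6 arrays and the marked spot were alternatives chosen after seeing the data. A filter of 12 of 16 arrays kept 3 of the 7 genes. Osbpl3 and Lysmd2 were not well above background in Flox and WT, which limits their folds to bounds. On most of those arrays Gipc2 and Fndc10 were not well above background either. No paired analysis was possible because the labels carry no replicate numbers that tie mice of different groups.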
